A study of Mus musculus with 18 samples.

Results

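The genes described are 10 genes of MHC class I antigen presentation, chosen by symbol with earlier results of these data known: the heavy chain genes H2-K1, H2-D1, H2-Q4, H2-Q6, H2-Q7, H2-T22 and H2-T23, the light chain gene B2m, and the antigen processing genes Tap1 and Tapbp. They are 10 of the 45777 genes in the deposited table, and all 10 had enough counts to be among the 17159 genes tested. Their mRNA was quantified by sequencing in BMMC, mast cells of the mouse that are grown in culture from bone marrow. The control cells, labelled WT, carried Sirt6 flox/flox alleles, and the KO cells carried the same alleles together with LysM-Cre, a Cre recombinase under the promoter of lysozyme M, a gene of myeloid cells. All groups therefore carried the floxed Sirt6 alleles, Cre was present in KO alone, and no group had Cre without them. The product of Sirt6 is a nuclear enzyme that removes acetyl groups from histones. WT and KO cells were both taken at levels of 0, 20 and 60, without a unit in the labels. LPS, a bacterial cell wall component, is the labelled treatment at 20 and 60, with none at 0, and the series title speaks of FcεRI, the IgE receptor. Each of the 6 groups held 3 libraries, which carried the numbers 4120, 414 and 6110 in every group. The 3 libraries of 1 number and 1 genotype are called a culture here, which gives 6 cultures. The labels give no age, sex or strain and do not say whether a number is an animal, so the p-values below reflect the spread between these samples alone, which may be technical in part.

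MHC class I molecules display short peptides from inside the cell at its surface. Each consists of a heavy chain, a light chain (β2-microglobulin, the product of B2m) and a peptide. The proteasome makes the peptides, the transporter formed by Tap1 and Tap2 carries them into the endoplasmic reticulum, and tapasin, the product of Tapbp, holds the empty class I molecule at the transporter. H2-K1 and H2-D1 encode the classical heavy chains, which are highly polymorphic between mouse strains and present peptides to CD8+ T cells. The H2-Q and H2-T genes encode nonclassical chains: H2-Q6 and H2-Q7 belong to the Qa-2 family, H2-T23 encodes Qa-1, a ligand of the NK cell receptor CD94/NKG2A, and H2-T22 encodes a chain that some γδ T cells bind. Many class I genes are induced by interferons through promoter elements bound by IRF and STAT factors, and by NF-κB.

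In the GRCm38 annotation 9 of the 10 genes lay on chromosome 17, within the MHC. In order along the chromosome these were Tapbp (33919478 to 33929290), H2-K1 (33996012 to 34000619), Tap1 (34187556 to 34197225), H2-D1 (35263094 to 35267497), H2-Q4 (35379617 to 35384674), H2-Q6 (35424850 to 35430055), H2-Q7 (35439140 to 35443773), H2-T23 (36029977 to 36032701) and H2-T22 (36037128 to 36042742). B2m lay on chromosome 2 (122147687 to 122153082). RefSeq promoter windows of GRCm38.p6 were read for the 250 bases before a transcript start, and all 10 genes had a window. For 8 genes this start is the edge of the gene span given above. For H2-K1 it is a start at 34000347, inside the span, so that its window lies within the annotated gene, and for H2-Q7 it is 35439155, also inside. Sequences are shown for the other classical chain H2-D1, the 2 H2-T genes and B2m, since these carry most of the results below, and for H2-K1 only the stretch from its first to its last motif base is shown. Each is 5′ to 3′ on the gene's own strand, with capitals where a searched motif was found on either strand.
H2-K1: GGGATTCCCcatctccacAGTTTCACT
H2-D1: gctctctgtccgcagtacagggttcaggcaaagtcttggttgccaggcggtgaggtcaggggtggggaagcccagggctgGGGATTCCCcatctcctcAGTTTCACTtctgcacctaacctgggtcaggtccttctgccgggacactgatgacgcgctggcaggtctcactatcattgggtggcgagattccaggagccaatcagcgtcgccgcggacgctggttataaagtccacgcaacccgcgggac
H2-T22: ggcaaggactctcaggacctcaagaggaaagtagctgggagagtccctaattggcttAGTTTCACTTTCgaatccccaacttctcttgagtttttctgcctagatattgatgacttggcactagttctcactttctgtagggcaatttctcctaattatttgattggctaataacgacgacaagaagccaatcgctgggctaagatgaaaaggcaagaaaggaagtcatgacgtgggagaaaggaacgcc
H2-T23: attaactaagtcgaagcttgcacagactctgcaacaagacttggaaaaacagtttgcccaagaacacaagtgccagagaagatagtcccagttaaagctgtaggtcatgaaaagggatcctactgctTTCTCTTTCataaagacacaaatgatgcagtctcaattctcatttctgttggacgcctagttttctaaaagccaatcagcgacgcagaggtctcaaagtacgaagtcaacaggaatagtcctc
B2m: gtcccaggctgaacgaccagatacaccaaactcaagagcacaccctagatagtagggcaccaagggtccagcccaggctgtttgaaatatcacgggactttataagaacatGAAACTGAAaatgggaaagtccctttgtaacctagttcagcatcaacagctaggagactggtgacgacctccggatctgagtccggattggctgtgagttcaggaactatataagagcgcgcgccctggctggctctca
These stretches are chr17:34000431-34000457 (minus strand) for H2-K1, chr17:35262844-35263093 (plus strand) for H2-D1, chr17:36042743-36042992 (minus strand) for H2-T22, chr17:36032702-36032951 (minus strand) for H2-T23 and chr2:122147437-122147686 (plus strand) for B2m. H2-K1 had 2 windows in the table, and the one searched lies farther upstream.

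The 3 exact motifs below were searched on both strands: AGTGAAACT, part of an interferon response element of class I promoters, GAAANNGAA, a core of IRF binding, and GGGATTCCC, part of the NF-κB element of H2-K1. AGTGAAACT was found in 6 of the 10 promoters, those of H2-K1, H2-D1, H2-Q4, H2-Q6, H2-Q7 and H2-T22, and in 0.268% of all 32851 windows. GGGATTCCC was found in 4, those of H2-K1, H2-D1, H2-Q6 and H2-Q7, and in 0.301% of all windows. GAAANNGAA was found in 3, those of H2-T22, H2-T23 and B2m, and in 7.13% of all windows. In H2-T22 it overlapped the AGTGAAACT match. The match to AGTGAAACT began 92 bases before the transcript start at 34000347 in H2-K1, 152 bases before the start in H2-D1 and 193 in H2-T22. In H2-K1, H2-D1, H2-Q6 and H2-Q7 both AGTGAAACT and GGGATTCCC occurred. In Tap1 and Tapbp these letters were not found in the window. Since AGTGAAACT and GGGATTCCC were taken from elements of class I promoters, their matches in these genes are no separate finding. The members of a family share ancestry and so are not independent, and a match is a description of sequence only.

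The libraries held 20026054 to 42265435 counts, of which 3 equal 0.0688 to 0.185 CPM (counts per 1e6 counts, on the TMM-scaled library sizes used throughout). Genes of mitochondrial DNA took 4.09% to 41.9% of the counts. Sirt6 was counted in every library, at 9.73 to 16.9 CPM in WT and 10.4 to 21.1 CPM in KO. Which exons were deleted is unknown here, so these gene counts check no genotype label. Lyz2, the locus of the Cre, had 514 counts over the WT libraries and 25 over the KO libraries. Xist lay between 608 and 2316 CPM in the 6 libraries of number 414 and between 0 and 1.62 CPM in the other 12, which sets number 414 apart. All 10 mast cell markers listed were detected in every library, with summed levels of 12779 to 56054 TPM. The summed neutrophil markers ran from 0 to 14.7 TPM in WT and from 14.2 to 86.1 TPM in KO. Over all levels 6 of the 8 tested were called higher in KO (edgeR adjusted p under 0.05), where 4.29% of all genes were. That comparison counts the libraries of a culture as separate samples. The summed macrophage markers ran from 29.7 to 242 TPM in WT and 115 to 408 TPM in KO, and the summed basophil markers from 55.3 to 129.9 and 97.8 to 165 TPM. In the same comparison the macrophage marker Itgam was called higher in KO (log2 fold change 2.74) and Lyz2 lower (−4.48). Of the basophil markers, Mcpt8 (1.98) and Prss34 (2.48) were called higher and Itga2 (−2.03) lower. Dendritic cell, B cell and T or NK cell markers each summed to at most 3.80 TPM in any library. The 10 class I genes summed to 910.4 to 3979 TPM, and the part of these other cells in the results was not tested. In bulk RNA, a change in the number of cells of a type and a change of RNA per cell cannot be told apart.

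On the deposited TPM scale, which corrects for gene length, H2-D1 had the highest level, with a median of 1162 TPM over the 18 libraries (351 to 1745). B2m followed at 683 TPM and H2-T23 at 543 TPM. H2-K1 had a median of 236 TPM, Tapbp 97.3, H2-T22 52.8, Tap1 48.7 and H2-Q4 32 TPM. H2-Q6 and H2-Q7 were lowest, at 7.80 and 6.67 TPM. H2-D1 exceeded B2m, H2-K1 exceeded Tapbp, and H2-Q4 exceeded H2-Q6 in 18 of 18 libraries. The neighbours H2-Q6 and H2-Q7 were not ordered, since H2-Q6 was the higher in 7 of 18 libraries. The order of H2-T22 and Tap1 also varied, with H2-T22 higher in 11 libraries, and that of B2m and H2-T23, with B2m higher in 12. H2-T23 had the widest range, from 35.9 to 866 TPM.

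**Figure D1:**
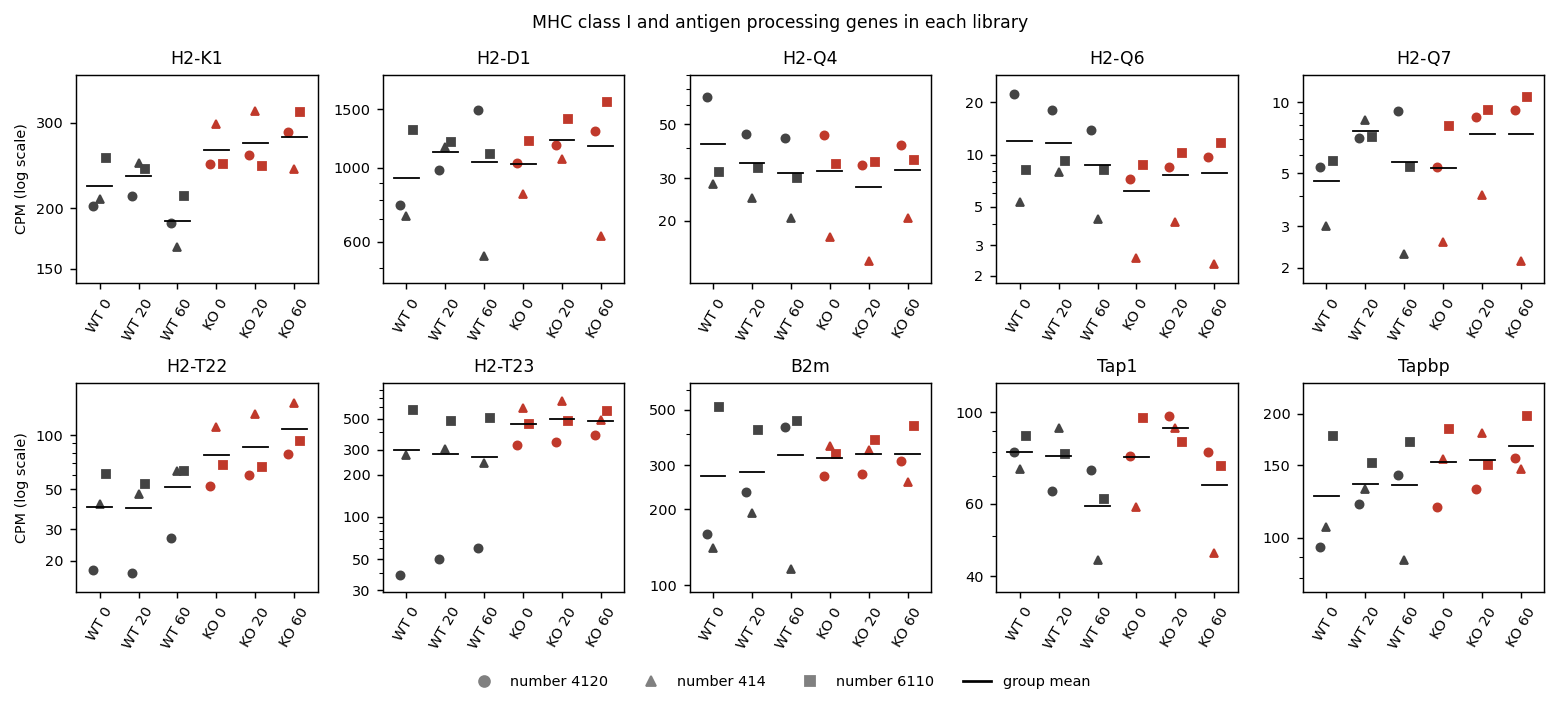
CPM (y axis, log scale, TMM-scaled libraries) of each of the 10 genes in the 6 groups of genotype and level (x axis); symbols give the number of the library, dark points are WT, red points KO, and bars are group means. The circles of WT number 4120 lie far below all other libraries for H2-T23 (38.7 to 60.4 CPM), whereas in KO the libraries of that number lie with the rest.

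KO was compared with WT at each level and over the 3 levels together. At single levels none of the 10 class I genes passed the edgeR test. With a Benjamini-Hochberg adjusted p under 0.05, 0 of the 10 genes were called at 0, where 0.274% of all tested genes were called. The count was likewise 0 at 20 (0.21% of all genes) and 0 at 60 (0.268%). At an unadjusted p under 0.05, 0, 1 and 1 of the 10 passed, where 12.1%, 7.79% and 10.7% of all genes did. DESeq2 called 0, 0 and 1 of the 10, against 1.46%, 0.695% and 1.32% of all genes. Averaged over the 3 levels, edgeR called H2-K1 and H2-T22 higher in KO, 2 of the 10 genes, where 4.29% of all genes were called higher and 10.9% were called in either direction. The average counts the 3 libraries of a culture as separate samples. With counts summed per culture, 0 of the 10 were called (adjusted p = 0.47 for H2-K1 and 0.38 for H2-T22 in edgeR), as were 0.157% of all genes. With culture as a random effect in limma-voom 0 of the 10 were called (adjusted p = 0.34 and 0.12), as were 0.752% of all genes. With the number as a block 3 of the 10 were called, where 23.1% of all genes were. That fit too counts the libraries of a culture as separate samples. With the same block on counts summed per culture 0 of the 10 were called, as were 0.134% of all genes. The median log2 fold change of the 10 genes over all levels was 0.17, against 0.01 over all tested genes, and 8 of the 10 were positive, where 50.5% of all genes were.

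Among the classical chains, H2-K1 was present at 202, 209 and 254 CPM in WT at 0 (numbers 4120, 414 and 6110) and at 247, 299 and 247 CPM in KO at 0. At 20 it was at 212, 248 and 240.5 CPM in WT and at 257, 318 and 244 CPM in KO. At 60 it was at 186, 166 and 212 CPM in WT and at 287, 241 and 316 CPM in KO. The KO libraries lay above all WT libraries at 60 alone, while at 0 and 20 the ranges overlapped. The culture means were 214 ± 18.8 CPM in WT and 273 ± 12 CPM in KO (SD, n = 3), which did not overlap either. The log2 fold change of H2-K1 was 0.25 (SE 0.18) at 0, 0.23 (SE 0.18) at 20, 0.58 (SE 0.18) at 60 and 0.35 (SE 0.11) over all levels, with edgeR adjusted p of 0.59, 0.74, 0.29 and 0.042. DESeq2 called H2-K1 at 60 (0.57, adjusted p = 0.029). Within the numbers H2-K1 was higher in KO in 8 of 9 pairs of the same level. The 9 pairs here and below come from 3 numbers at 3 levels, so they are not independent. Its call over all levels was lost with scaling by library size (adjusted p = 0.11) and with the mitochondrial share as a covariate (0.12).

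H2-D1, the other classical chain and the most abundant of the genes, was at 774, 717 and 1296 CPM in WT at 0 and 1032, 834 and 1203 CPM in KO. At 60 the WT libraries were at 1488, 545 and 1096 CPM and the KO libraries at 1291, 626 and 1571 CPM. The groups overlapped at every level, and the library of number 414 at 60 was the lowest in both genotypes. Over all levels the log2 fold change of H2-D1 was 0.14 (SE 0.21, edgeR adjusted p = 0.68). The fitted SE at a single level was 0.37, so a change of the size seen for H2-K1 was not detectable in H2-D1 at this spread.

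Of the nonclassical chains, H2-T22 was the one called over all levels in edgeR without a block. In WT it was at 17.7, 41.2 and 60.7 CPM at 0, at 17.1, 46.9 and 53.3 CPM at 20, and at 26.7, 63.6 and 63.6 CPM at 60. In KO it was at 52.1, 111 and 68.5 CPM at 0, at 60.3, 131 and 66.8 CPM at 20, and at 79.0, 152 and 93.3 CPM at 60. KO was higher than WT in 9 of 9 pairs of the same number and level, which are not independent. The ranges did not overlap at 20 and 60. The culture means were 43.4 ± 20.3 CPM in WT and 90.5 ± 36.1 CPM in KO (SD, n = 3). Edge values of the 2 genotypes were close, with 59.2 CPM in WT 6110 against 63.8 CPM in KO 4120. The log2 fold change of H2-T22 was 0.95 (SE 0.51) at 0, 1.14 (SE 0.51) at 20, 1.07 (SE 0.51) at 60 and 1.06 (SE 0.29) over all levels, with edgeR adjusted p of 0.46, 0.63, 0.46 and 0.032. With the number as a block the value over all levels was 1.13 (edgeR adjusted p = 0.00078). That fit counts the libraries of a culture as separate samples and called 23.1% of all genes. With counts summed per culture and the same block the value was 1.12 (edgeR adjusted p = 0.15). With the mitochondrial share as a covariate the value over all levels was 1.12 (0.056). Without WT culture 4120 it was 0.71 (adjusted p = 0.095), and without KO culture 414 it was 0.69 (0.15), so these 2 cultures each moved it by about the same amount. Of the 75-base stretches of H2-T22 transcripts in GENCODE vM21, 18.5% also occurred in another gene, and 15.7% in H2-T10, a transcribed pseudogene 0.0787 Mb away. The split of reads between these 2 genes is therefore uncertain. H2-T10 itself was higher in KO over all levels, by 0.45 on the log2 scale (edgeR adjusted p = 0.044).

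H2-T23 separated a single culture from the rest. In WT 4120 it was at 38.7, 49.9 and 60.4 CPM at 0, 20 and 60. In WT 414 it was at 276, 306 and 243 CPM and in WT 6110 at 579, 482 and 501 CPM. In KO it was at 322, 342 and 385 CPM in culture 4120, at 599, 672 and 487 CPM in 414 and at 458, 477 and 563 CPM in 6110. The 3 libraries of WT 4120 were thus below all 15 others at every level. The log2 fold change of H2-T23 over all levels was 0.76 (SE 0.48, edgeR adjusted p = 0.29). It was 0.26 (adjusted p = 0.55) without WT culture 4120, and 1.57 (0.038) without WT culture 6110. The latter fit called 21.3% of all genes. With the number as a block the log2 fold change was 1.26 and passed the threshold (edgeR adjusted p = 0.022), in the fit that called 23.1% of all genes. With counts summed per culture and the same block it was 1.25 and did not pass (edgeR adjusted p = 0.3).

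None of the 3 H2-Q genes passed the test between the genotypes in edgeR. H2-Q4 was at 64.5, 28.3 and 31.9 CPM in WT at 0 and 45.1, 17.1 and 34.3 CPM in KO at 0. H2-Q6 was at 22.5, 5.30 and 8.17 CPM in WT at 0 and 7.28, 2.54 and 8.67 CPM in KO at 0. For both genes number 4120 was highest in WT at all levels, and number 414 lowest in both genotypes. Over all levels the log2 fold change was −0.21 for H2-Q4 (SE 0.26), −0.57 for H2-Q6 (SE 0.37) and 0.18 for H2-Q7 (SE 0.32), with edgeR adjusted p of 0.59, 0.32 and 0.73. KO was higher in 3 of 9 pairs for H2-Q4 and H2-Q6 and in 5 of 9 for H2-Q7. H2-Q7 was counted at 2.14 to 10.5 CPM over all 18 libraries. H2-Q6 shared 17.9% of its 75-base stretches with other genes and H2-Q7 17%, among them each other, so their separate counts are uncertain.

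The light chain gene B2m was at 160.2, 141 and 514 CPM in WT at 0 and 271, 359 and 332 CPM in KO at 0. At 60 it was at 427, 116 and 451 CPM in WT and 313, 257 and 432 CPM in KO. WT thus spanned both the lowest and the highest values, and the KO libraries lay between them. The log2 fold change over all levels was 0.17 (SE 0.29, edgeR adjusted p = 0.72).

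The culture means of the processing genes spanned 1.31-fold for Tap1 and 1.64-fold for Tapbp. Tap1 was at 79.9, 72.7 and 87.4 CPM in WT at 0 and 78.2, 59.0 and 96.8 CPM in KO at 0, and its log2 fold change over all levels was 0.12 (SE 0.14, edgeR adjusted p = 0.59). Tapbp was at 94.7, 106 and 177 CPM in WT at 0 and 119, 155 and 184 CPM in KO at 0. Its log2 fold change over all levels was 0.26 (SE 0.16, adjusted p = 0.27), and KO was higher in 8 of 9 pairs. Without WT culture 6110 it was 0.48 and passed the threshold (edgeR adjusted p = 0.037), in a fit that called 21.3% of all genes. The exact permutation test of the 10 genes at each level and over culture means, 40 tests in all, can give no two-sided p below 0.1 with 3 against 3. It reached 0.1 for H2-T22 at 20, for H2-K1 and H2-T22 at 60, and for both in the culture means. Ranges with KO wholly above WT occurred in 5.94%, 8.35% and 7.34% of all tested genes at 0, 20 and 60, and in 9.6% for culture means.

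**Figure D2:**
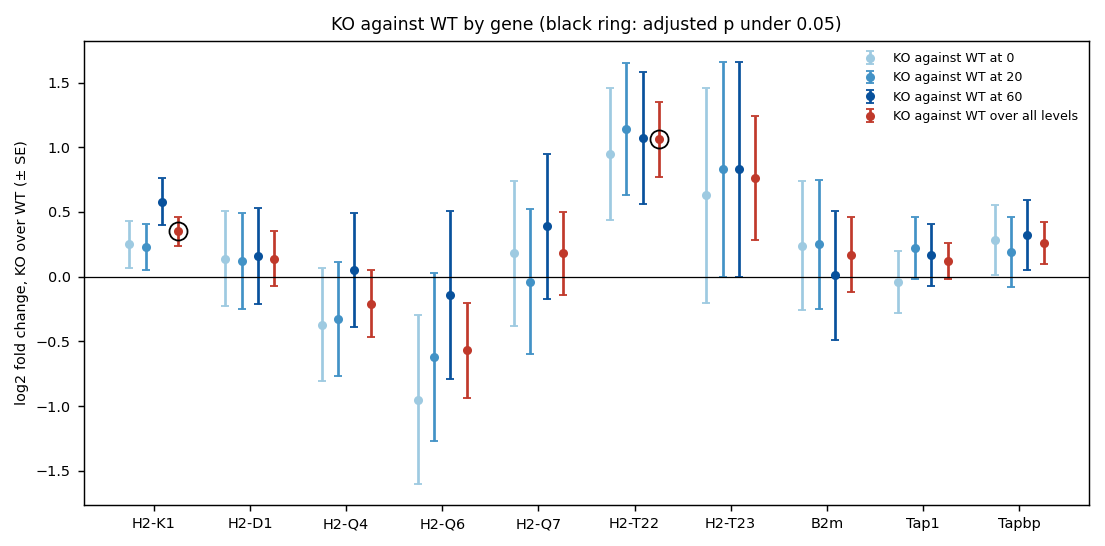
Log2 fold change of KO over WT from edgeR (y axis) for each of the 10 genes (x axis), with bars of 1 SE; blue points are the single levels 0, 20 and 60, and red points the average over all levels. H2-K1 (0.35) and H2-T22 (1.06) are ringed in the average over all levels, and no single level has a ringed gene.

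The levels 20 and 60 were compared with 0 in each genotype to find what moved with the labelled treatment. None of the 10 genes passed at either level in either genotype in edgeR. The count called was 0 of 10 for WT 20 against 0 (0.6% of all genes), WT 60 against 0 (0.221%), KO 20 against 0 (0.449%) and KO 60 against 0 (2.54%), and 0 of 10 had an unadjusted p under 0.05 in each of these, where 5.77%, 7.94%, 3.23% and 14.2% of all genes did. DESeq2 also called 0 in each, where it called 1.18%, 1.47%, 0.8% and 5.64% of all genes. The log2 fold changes ran from −0.27 (H2-Q4) to 0.69 (H2-Q7) in WT at 20, from −0.45 (H2-Q6) to 0.36 (H2-T22) in WT at 60, from −0.23 (H2-Q4) to 0.47 (H2-Q7) in KO at 20, and from −0.23 (Tap1) to 0.48 (H2-T22) in KO at 60. With the culture as a block, which paired KO 60 with KO 0, H2-T22 at 60 passed in KO (log2 fold change 0.50, adjusted p = 0.030 in edgeR), the 1 member called in a fit that called 10.7% of all genes, and H2-T22 was higher at 60 than at 0 in all 3 KO and all 3 WT cultures. Scaling by library size shifted the median of all genes by −0.22 in that comparison. The difference between the genotypes in the response was called for 0 of 10 genes at 20 and at 60, where 0% of all genes were called, and 0 of 10 had an unadjusted p under 0.05, where 0.396% and 1.1% of all genes did. DESeq2 called 0 of the 10 for both differences, and 0.00584% and 0.0117% of all genes.

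The culture accounted for most of the spread of these genes. Of the variance of log2 CPM over the 18 libraries, the share between the 6 cultures had a median of 72.2% over the 10 genes, against 54.1% over all tested genes, and the share between levels a median of 4.08% against 12.4%. The share between cultures, which includes that between genotypes, was 98.2% for H2-T23, 92.7% for H2-T22, 90.2% for H2-Q6 and 89.1% for H2-Q4. Tap1 was at the other end with 25.4%, and it had the highest share between levels, 35.9%. The part between genotypes was 27.1% of the variance for H2-T23, 45.3% for H2-T22, 12.5% for H2-Q6 and 5.07% for H2-Q4. For H2-K1 it was 50.7%, out of 61.4% between cultures. Its median was 10.3% over the 10 genes, against 10.8% over all tested genes. The highest culture mean was 11.8 times the lowest for H2-T23, 6.42 times for H2-T22 and 6.08 times for H2-Q6, but 1.43 times for H2-K1 and 1.31 times for Tap1. The SD of H2-T23 over the cultures, 1.34 on the log2 scale, exceeded that of 97.3% of all tested genes, and that of H2-T22 (0.88) exceeded 90.3%.

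In 2 of the 6 cultures the H2-Q and H2-T genes deviated from the mean of the cultures in opposite directions. In WT 4120 the culture mean was lowest of the 6 for H2-T23 and H2-T22 (49.7 and 20.5 CPM) and highest for H2-Q4 and H2-Q6 (51.3 and 18.1 CPM). In KO 414 the mean was highest for H2-T23 and H2-T22 (586 and 132 CPM) and lowest for H2-Q4, H2-Q6 and H2-Q7 (17.1, 2.98 and 2.92 CPM). In the other 4 cultures the signs were alike: all 5 genes lay below the mean of the cultures in WT 414, and above it in WT 6110, KO 4120 and KO 6110. Over the 18 libraries, which share cultures and depth, Pearson's r of log2 CPM was 0.89 between H2-T22 and H2-T23 and 0.87 between H2-Q4 and H2-Q6, −0.74 between H2-Q4 and H2-T22 and −0.78 between H2-Q6 and H2-T22. It was −0.32 between H2-Q7 and H2-T22 and −0.14 between H2-Q7 and H2-T23. The classical chains differed from each other: r with H2-T22 was 0.63 for H2-K1 and −0.03 for H2-D1, and r with H2-Q6 was −0.24 for H2-K1 and 0.52 for H2-D1.

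**Figure D3:**
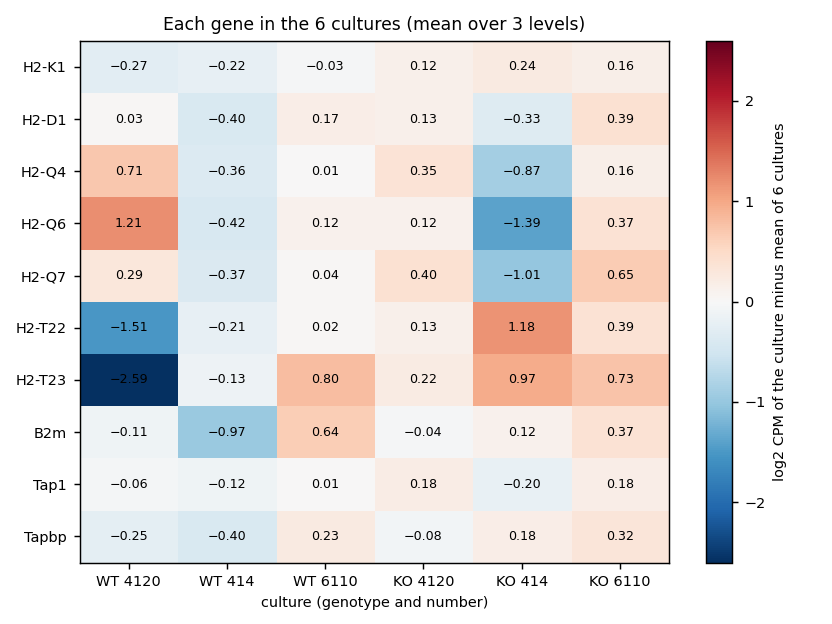
Log2 CPM of each culture mean minus the mean of the 6 cultures (colour and printed value) for each of the 10 genes (rows) in the 6 cultures (columns). WT 4120 and KO 414 have opposite signs for the H2-Q genes and for H2-T22 and H2-T23, whereas H2-K1 and Tap1 vary least.

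Several class I genes moved with the mitochondrial share within cultures. For H2-D1 the order of the 3 libraries by CPM was the exact inverse of their order by mitochondrial share in 5 of the 6 cultures. In WT 414, for example, H2-D1 was at 1154 CPM at a share of 6.56%, at 717 CPM at 17.8% and at 545 CPM at 41.9%. Of all tested genes, 0.793% had this inverse order in at least 5 cultures, and 4.1% in at least 4. H2-K1, H2-Q7, H2-T23 and Tapbp had it in 4 cultures, H2-Q6, B2m and Tap1 in 3, H2-T22 in 1 and H2-Q4 in 0. These counts were taken after the values had been seen. The share was lower in KO than in WT at 60 in all 3 numbers (4.47% against 8.84%, 34.7% against 41.9% and 4.29% against 15.8%). At 0 and 20 it was lower in KO in numbers 4120 and 6110, but higher in KO in number 414 (27.2% against 17.8% at 0 and 8.21% against 6.56% at 20). Its part in the genotype differences was tested only as the covariate given above, with which 0 of the 10 genes and 4.35% of all genes were called over all levels.

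**Figure D4:**
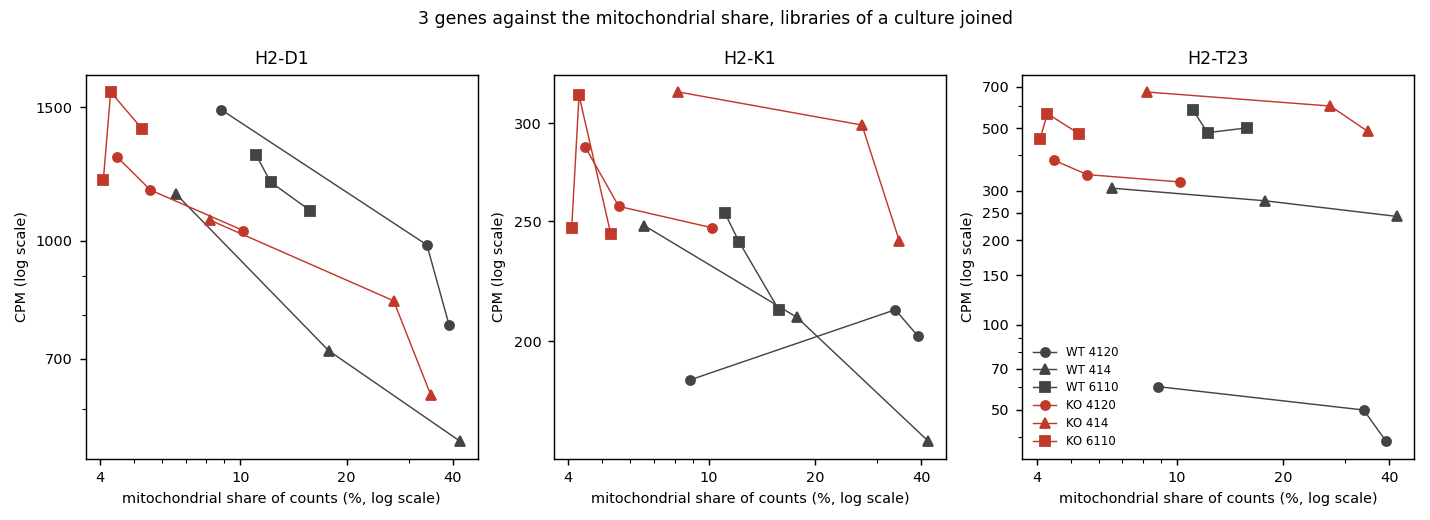
CPM of H2-D1, H2-K1 and H2-T23 (y axes, log scale) against the share of counts from mitochondrial DNA genes (x axes, log scale) in the 18 libraries, with the libraries of a culture joined by a line; dark is WT and red KO. H2-D1 falls along the line in 5 of 6 cultures, and WT 4120 stands apart for H2-T23.

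The surrounding segment of chromosome 17 was examined next, since MHC haplotypes differ between mouse strains. Of the 173 other tested genes within 1 Mb of a class I gene on chromosome 17, 3 were called between KO and WT at 0, 0 at 20 and 2 at 60 in edgeR (1.73%, 0% and 1.16%, against 0.274%, 0.21% and 0.268% of all genes). All were pseudogenes higher in KO. Over all levels 31 of the 173 were called (17.9%, against 10.9% of all genes), 6 higher and 25 lower. Of the 25 lower in KO, H2-Ke6, 0.03 Mb from H2-K1, had the smallest edgeR adjusted p (log2 fold change −1.23, 0.005). It was followed by Vps52, 0.0363 Mb from Tapbp (−0.57, 0.0062). With counts summed per culture 0 of the 173 were called.

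Gm8750, 0.021 Mb from H2-Q4 (35400667 to 35405521), rose by 3.47 on the log2 scale at 0 and by 3.48 at 60 (edgeR adjusted p = 0.016 and 0.01). Its level was 0.166 ± 0.176 CPM in WT and 1.64 ± 0.485 CPM in KO at 0 (SD, n = 3). Gm8752, 0.00672 Mb from H2-Q7 (35445862 to 35450721), rose by 3.61 at 0 and 3.31 at 60 (adjusted p = 0.011 and 0.01). At 20, where neither was called, Gm8750 was at 0.939 ± 0.371 CPM in WT and 2.66 ± 0.701 CPM in KO (log2 fold change 1.5, edgeR adjusted p = 0.51), and Gm8752 at 1.11 ± 0.506 and 2.48 ± 0.83 CPM (1.16, adjusted p = 0.61; SD, n = 3). Both were higher in WT at 20 than at 0, by 2.66 for Gm8750 (edgeR adjusted p = 0.067) and 3.27 for Gm8752 (0.013). These 2 pseudogenes share 92.4% of the 75-base stretches of Gm8750, so they count as 1 signal, and both are low, with 10 and 8 counts over the WT libraries at 0. Another gene, Arcn1, also holds 14.2% of the stretches of Gm8750 and 12.8% of those of Gm8752. The source of reads on these stretches is therefore uncertain, and its part in the difference was not tested. Gm8810, 0.0278 Mb from H2-T22 (36064907 to 36067758), had 0 counts in all 9 WT libraries. Its KO libraries together held 64 counts at 0, 33 at 20 and 26 at 60. Set against 3 counts over the WT group, it was at least 17.3-fold higher in KO at 0, at least 10.5-fold at 20 and at least 8.62-fold at 60. These bounds cover counting error only. It was called at 0 in edgeR (adjusted p = 0.031). With counts summed per culture, the edgeR adjusted p over all levels was 0.10 for Gm8750, 0.18 for Gm8752 and 0.086 for Gm8810. Gm8810 and H2-T22 shared 0.147% of the stretches of Gm8810. The culture means of these 3 pseudogenes lay wholly higher in KO, as did those of 9.6% of all tested genes. Since the 3 were named for calls in these same libraries, this is no separate support. Gm8750 had culture means of 0.254 to 0.539 CPM in WT and 1.60 to 2.65 CPM in KO, and Gm8810 of 0 in WT and 0.374 to 0.570 CPM in KO.

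Among neighbours with a mean of at least 1 CPM, the 10 with the widest spread over the cultures included Gm8750 and Gm8752. Gm8810, with a mean of 0.221 CPM, was below this limit and was not ranked. Of the other 8, Aif1, which encodes a calcium-binding protein of macrophages, 0.0921 Mb from H2-D1 (35170986 to 35176083), had culture means of 2.52 to 5.10 CPM in WT and 0.158 to 1.59 CPM in KO. Aif1 was lower in KO over all levels, with a log2 fold change of −2.02 (edgeR adjusted p = 0.022, and 0.35 with counts summed per culture). Several others stood apart in single cultures. H2-Ob, the β chain of the class II regulator H2-DO, lies 0.0513 Mb from Tap1 (34238905 to 34245908). Its culture mean was 3.74 CPM in WT 4120, against 36.9 to 59.2 CPM in the other 5 cultures, the culture in which H2-T23 was also lowest. The lncRNA AA388235, 0.0145 Mb from H2-K1, was at 0.529 CPM in WT 4120 and at 3.55 to 10.5 CPM elsewhere, and the lncRNA Gm20506 near Tap1 at 0.480 against 1.82 to 5.37 CPM. BC051142, 0.211 Mb from Tap1, was lowest in both cultures of number 6110, at 0.112 CPM in WT and 0.108 CPM in KO, against 0.671 to 3.72 CPM in the other 4. In KO 414 the lncRNA LOC115488820 near Tapbp was at 0 CPM against 4.25 to 9.70 CPM elsewhere, and Gm10499 near H2-T22 at 0.432 against 6.54 to 15.0 CPM. Gm7030, a class I gene 0.0905 Mb from H2-T22, was at 4.97 CPM in KO 4120 and 8.60 CPM in KO 6110, against 0.895 to 1.77 CPM in the other 4 cultures, but shares 52.2% of its stretches with other genes. Its libraries were uneven within cultures, with 0, 0 and 5.31 CPM in WT 6110 and 3.83, 0 and 0 CPM in KO 414 at 0, 20 and 60. These genes were picked for their spread after their values were seen. The labels give no strain, and whether the mice differed in haplotype was not tested.

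**Figure D5:**
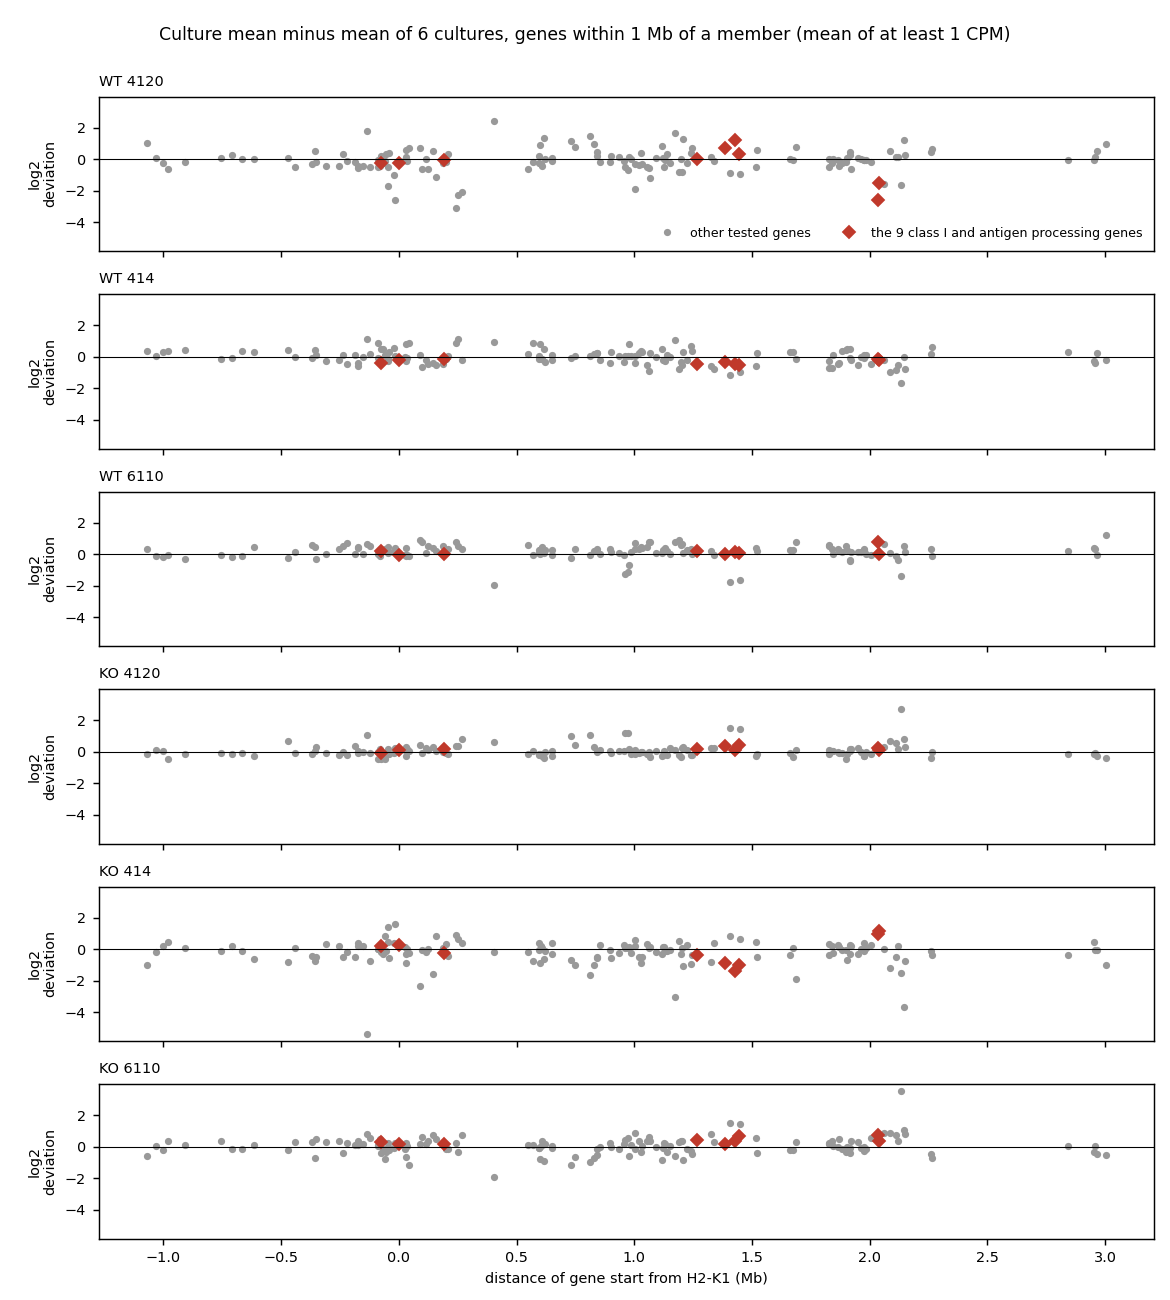
Log2 CPM of each culture mean minus the mean of the 6 cultures (y axis) for genes of at least 1 CPM within 1 Mb of the 9 class I and processing genes on chromosome 17, by distance from H2-K1 (x axis, Mb), with 1 panel per culture; red diamonds are the 9 genes and grey points the other tested genes. In WT 4120 H2-T22 and H2-T23 and some neighbours lie far below 0, and in KO 414 they lie above it while the H2-Q genes lie below.

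Farther from the class I genes on chromosome 17, 6 more genes were called between the genotypes at a single level, all between 4.76 and 30.4 Mb away. Of all tested genes 0.274%, 0.21% and 0.268% were called at 0, 20 and 60. The lncRNA 9630028I04Rik, 6.68 Mb from Tapbp, was higher in KO by 4.02 at 0 and 4.28 at 20 on the log2 scale (edgeR adjusted p = 0.036 and 0.032). Cpne5, a copine gene 4.76 Mb from Tapbp, was higher in KO by 2.53 at 60 (adjusted p = 0.019). Tagap1, 1700010I14Rik, Gm29711 and Gm4705 were lower in KO. The log2 fold change of Gm4705 was −5.65 at 0, −6.01 at 20 and −6.27 at 60 (edgeR adjusted p = 8.6e-05, 5.5e-05 and 4.5e-05). That of Tagap1 was −2.66 at 0 (0.00022), and that of 1700010I14Rik −1.56 at 0 and −2.07 at 60 (0.016 and 0.002). For Gm29711 it was −4.3 at 60 (0.03). With counts summed per culture, 9630028I04Rik passed over all levels (4.12, edgeR adjusted p = 0.0067) and Cpne5 did not (2.25, 0.1). The WT libraries held only 0 to 8 counts each of 9630028I04Rik, so the size of its change is uncertain. For Tagap1, 1700010I14Rik, Gm29711 and Gm4705 the result with sums per culture is not given here.

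Of 34 other genes of class I presentation, 32 were tested, and 0 were called between the genotypes at each single level (0.274%, 0.21% and 0.268% of all genes at 0, 20 and 60). At an unadjusted p under 0.05 there were 6 of 32 at 0, 0 at 20 and 1 at 60, where 12.1%, 7.79% and 10.7% of all genes passed. Over all levels 2 of 32 were called, where 10.9% of all genes were, and the median log2 fold change was 0.23 over the 32 genes, against 0.01 over all genes. Canx, which encodes the chaperone calnexin that folds new heavy chains, rose by 0.54 (SE 0.16, edgeR adjusted p = 0.048), with WT cultures at 120.0 ± 16.1 CPM and KO cultures at 174 ± 23.9 CPM (SD, n = 3). Tap2, the partner of Tap1 in the transporter, fell by 0.47 (SE 0.11, adjusted p = 0.019), from 586 ± 63.0 to 419.8 ± 49.8 CPM. The culture means of Tap2, which was named for its call in these same libraries, were 514 to 628 CPM in WT and 362 to 452 CPM in KO. Tap1 lies 0.0169 Mb from Tap2. With counts summed per culture neither passed (adjusted p = 0.35 for Canx and 0.44 for Tap2 in edgeR). Ifnar2, a subunit of the type I interferon receptor, was next with 0.41 (adjusted p = 0.078). Between the levels, Irf1, a transcription factor that induces class I genes, fell by 0.80 in KO at 60 against 0 (adjusted p = 0.031), from 46.0 ± 4.34 to 26.4 ± 1.37 CPM (SD, n = 3). In WT Irf1 was at 40.5 ± 8.35 CPM at 0 and 25.4 ± 2.33 CPM at 60, lower at 60 in all 3 numbers (log2 fold change −0.68, edgeR adjusted p = 0.21). It was the only one of the 32 genes called in any comparison of levels, where 2.54% of all genes were called in KO at 60.

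Of 24 interferon-induced genes, 20 were tested, and 0 were called between the genotypes at any single level. Over all levels 2 of the 20 were called, near the 10.9% of all genes. Gbp2, an interferon-induced GTPase, rose by 1.27 (edgeR adjusted p = 0.0049), from culture means of 8.11 ± 2.07 to 19.3 ± 6.41 CPM, and Oas1a, an antiviral nucleotide polymerase, fell by 0.57 (adjusted p = 0.042), from 9 ± 0.647 to 6.07 ± 1.88 CPM (SD, n = 3). In KO at 60 against 0 Usp18, a brake on interferon signalling, fell by 1.21 (adjusted p = 0.036), from 9.53 ± 2.33 to 4.14 ± 1.75 CPM. In WT Usp18 was at 9.52 ± 1.06 CPM at 0 and 5.21 ± 0.744 CPM at 60, lower at 60 in all 3 numbers (log2 fold change −0.87, edgeR adjusted p = 0.34). The median log2 fold change of the 20 genes over all levels was 0.09, against 0.01 over all genes. Of 11 MHC class II genes, 10 were tested, and 1 was called over all levels, also near 10.9%: H2-DMb1, a subunit of the class II peptide loader H2-DM, rose by 0.84 (adjusted p = 0.043), from 16 ± 7.36 to 28.8 ± 7.41 CPM. With counts summed per culture Gbp2, Oas1a and H2-DMb1 did not pass (edgeR adjusted p = 0.24, 0.46 and 0.41).

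Genes whose log2 CPM over the 18 libraries was most like the mean of the 10 class I genes were Bsg (Pearson's r = 0.97), Mfge8 (0.97), Mpdu1, Surf4 and Slc16a3 (each 0.96), none of them on chromosome 17. The libraries share culture, depth and mitochondrial share. For single members the gene most alike was Syt5 for H2-T23 (0.99), Tmbim6 for Tapbp (0.98), and Tagln2 for B2m (0.96). H2-Q7 was most like another class I gene, H2-Q1 (0.96), and H2-Q4 was most like H2-Q6 (0.87).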

How the data were processed

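RNA was measured in 18 libraries of BMMC, prepared from total RNA with a TruSeq kit per the labels' protocols, which do not state the strand. Per the submitters' processing notes, bcl2fastq 2.20.0, FastQC 0.11.7, HISAT2 2.1.0 and StringTie 2.1.3b were used with mm10. The authors deposited a table of 45777 genes with a raw read count, an FPKM and a TPM per library, per the file headers. The counts were tested, and FPKM and TPM served as alternatives; TPM also gave levels between genes.

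Of the genes, 17159 passed filterByExpr. Counts were scaled by TMM, and edgeR 4.0.16 (R 4.3.3) was used to fit its quasi-likelihood model, with the 6 group means, over the 18 libraries, with Benjamini-Hochberg adjustment over all tested genes and a threshold of 0.05. The average over all levels treats libraries of a culture as separate, although their estimated correlation was 0.447. CPM use TMM-scaled sizes. Correlations and variance shares rest on log2 CPM (prior count 2). Alternatives were DESeq2 1.42.0, limma-voom (3.58.1) with culture as a random effect, other scalings, no filter, the compared groups only, the mitochondrial share (37 genes) as a covariate, TPM and FPKM on a log2 scale with pseudocounts of 0.1 and 1, a replicate block, sums per culture, and each library left out; leaving out whole cultures or numbers was added after the data were seen. The fit was tested on simulated data.

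Deviations from the group means correlated above 0.1 in all 3 numbers for KO against WT at 60 (0.43 to 0.53) but not at 0 or 20 (lowest −0.02 and 0.02), and in all 3 cultures for WT 20 (0.62 to 0.76), KO 20 (0.40 to 0.58) and KO 60 (0.33 to 0.67) but not WT 60 (lowest 0.02). Positions and promoters came from RefSeq and shared stretches from GENCODE vM21; 99.8% of gene IDs matched. The members and all lists were chosen with earlier results of these data known. Partner genes named are those called and the 3 with the smallest p; interferon, class II and neighbouring genes are named when called, as examples where many were.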

Additional observations from a re-analysis of the deposited data

How the results depend on the processing

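Of the 10 class I genes, 2 were called over all levels, where 10.9% of all genes were. The count was 0 with culture as a random effect (0.752% of all genes) and with the mitochondrial share as a covariate (4.35%). It was also 0 with counts summed per culture (0.157%) and with these sums and a replicate block (0.134%). With library size scaling (5.04%), without the filter (4.43%), with TPM (2.64% and 2.22% for pseudocounts of 0.1 and 1) and with FPKM (5.94%) it was 1. With a replicate block it was 3 (23.1%). It was 0 to 2 without single libraries (5.68% to 18.4% of all genes) and 0 to 4 without a whole culture or number (1.47% to 21.3%). At 60 DESeq2 called 1 against 0 (1.32% of all genes), and the replicate block gave 1 for KO 60 against 0 (10.7%). Among single libraries left out, the call of H2-T22 was lost without WT 0 or WT 20 of number 4120, WT 0, KO 0 or KO 20 of number 414, or KO 0 or KO 60 of number 6110 (adjusted p 0.016 to 0.079 over the 18 fits). The call of H2-K1 was kept in 5 of 18, those without KO 0 of number 4120, KO 60 of number 414, or WT 0, WT 60 or KO 20 of number 6110 (0.022 to 0.095). Without WT culture 6110 the 4 called were H2-K1, H2-T22, H2-T23 and Tapbp. That fit called 21.3% of all genes and counts the libraries of a culture as separate samples. Library size scaling shifted the median of all genes by 0.16 at 0, 0.16 at 20 and 0.11 over all levels for KO against WT, by −0.22 for KO 60 and by −0.14 for the difference at 60. The cause was not tested. With 3 libraries per group and this spread between cultures, the smallest SE at a single level was 0.18 on the log2 scale (H2-K1) and the largest 0.83 (H2-T23).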
